A study of Bos taurus with 2 samples.

Results

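The subunits of respiratory complex I (NADH:ubiquinone oxidoreductase) were examined in Bos taurus whole blood from Holstein cattle. The set held 37 nuclear genes, named NDUFA, NDUFAB, NDUFB, NDUFC, NDUFS or NDUFV, of 16888 genes with a probe on the array. A probe was taken when its gene symbol, or the gene of its RefSeq accession, was one of the 37, which gave 76 probes, 61 of them found through the accession and 15 through the symbol only. The study hybridised Cy3-labelled total RNA to a bovine oligonucleotide array, with 1 array for a specimen of low feed efficiency and 1 for a specimen of high feed efficiency. The array files name the groups by residual feed intake, the feed eaten beyond what size and production require, and a high residual intake is a low efficiency. Strain beyond the Holstein breed, age, sex, diet and the number of animals behind a specimen are not in the labels, which give no treatment.

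Complex I is the entry point of the mitochondrial respiratory chain. It takes electrons from NADH, passes them along a chain of iron-sulphur clusters to ubiquinone, and pumps protons across the inner membrane. The complex is shaped like an L, with a matrix arm that holds the flavin and the clusters and a membrane arm that holds the pump. A conserved core does the chemistry, and a larger number of accessory subunits surrounds it and is needed for assembly and stability. The hydrophobic core subunits of the membrane arm are encoded by mitochondrial DNA and are not among the 37. In blood, lymphocytes, monocytes and platelets carry respiring mitochondria, neutrophils rely mainly on glycolysis, and mature red cells have none.

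Each array gave 1 intensity per probe, the median pixel signal of the spot minus a background taken from negative controls. The array of low feed efficiency was brighter, with a 75th percentile of 98 against 81, so intensities were divided by that percentile and taken to log2. The log2 value of low minus high feed efficiency, less the median of that difference over all 10339 genes above background on both arrays, is called the relative difference. Paired intensities are printed with the array of low feed efficiency first and that of high feed efficiency second. A raw intensity ratio of 1.18 corresponds to a relative difference of 0. A positive value means that a gene was higher in low feed efficiency than the middle gene was, and values for groups are given on the same scale. With 1 array per group no test is possible and no difference has a replicate check. The only measured error is technical: for bright probes spotted more than once, the difference had an SD of 0.10 over spots of the same probe (12 probes, 47 spots), and for dim ones 0.23 (24 probes, 91 spots). Bright means above the median gene in signal, as the represented probe of every member was, while dim further probes and dim genes of other lists carry the wider error. The tissue label was borne out by blood genes, with hemoglobin HBA at 26648 and 20058, S100A12 of neutrophils at 48851 and 34561, and CD3E of T cells at 4473 and 4130.

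All 37 genes were above background on both arrays. Of the 76 probes, 69 were above background on both arrays and 6 on neither, and 1 was left out because the scanner software marked its bright spot as not found. Each gene is represented by its brightest usable probe, and no spot of the set had saturated pixels. In low feed efficiency these probes read from 210 to 10162 with a median of 1273, and in high feed efficiency from 155 to 10883 with a median of 969. Every one of the 37 lay above the middle gene in signal, the dimmest at percentile 56.0. How bright a probe is depends on its sequence, so intensities are compared between arrays and not between genes.

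**Figure D1:**
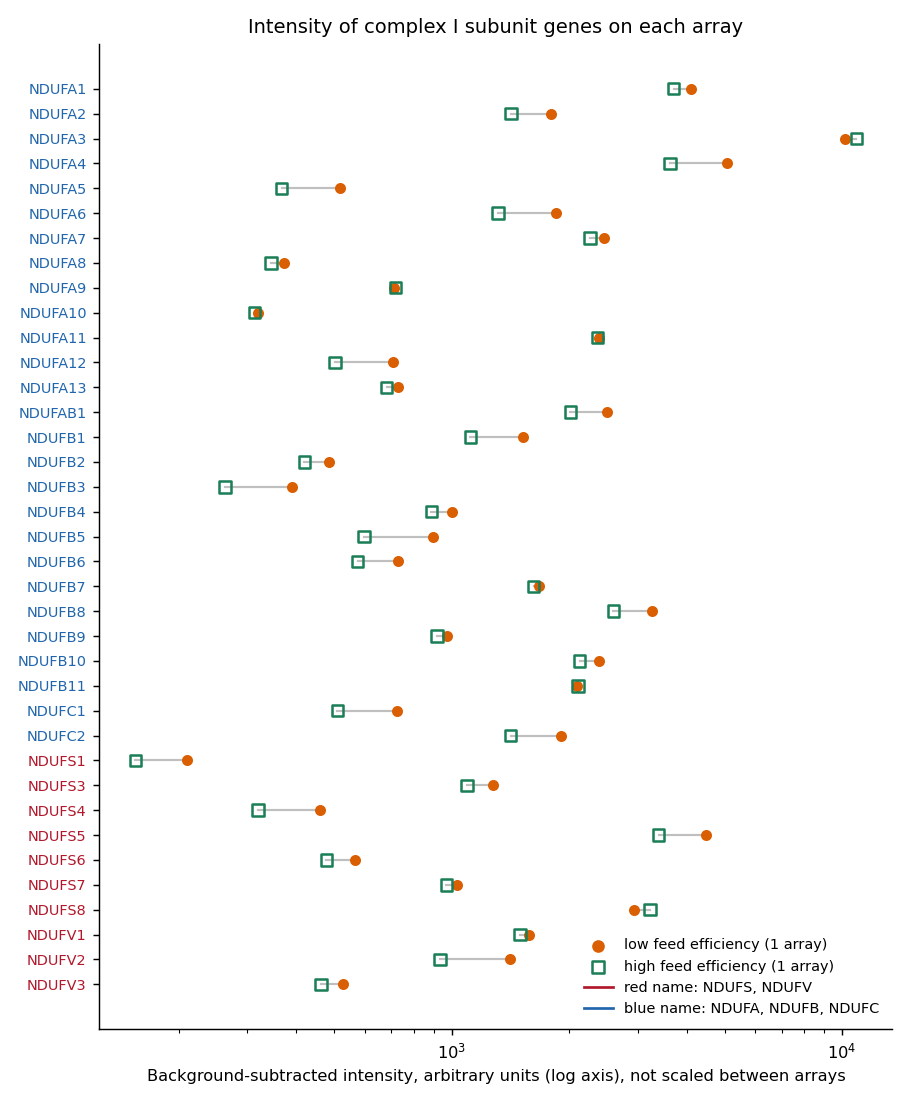
Background-subtracted intensity (arbitrary units, log axis, before scaling) of the brightest usable probe of each of the 37 genes, with a filled circle for the array of low and an open square for the array of high feed efficiency. The circle lies to the right of the square for 33 genes and to the left for 4, on arrays whose 75th percentiles were 98 and 81. The middle gene of all read 1.18-fold higher in low feed efficiency, and the split over all genes is not given.

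The complex as a whole did not stand off from other genes. The median relative difference of the 37 was -0.02, with 18 genes above and 19 below the median of all genes. No member was 2-fold apart, where 0.416% of all genes were 2-fold higher and 0.484% 2-fold lower, and none was 1.5-fold apart, where 3.29% were higher and 2.62% lower. The middle of the set spanned -0.14 to 0.21 (interquartile range), and that of all genes -0.18 to 0.19. Above the median of all genes by more than 0.10, the SD over bright replicate spots, were 15 members, or 40.5%, against 35.8% of all genes. Below it by more than 0.10 were 13 members, or 35.1%, against 35.2% of all genes. Among the 1475 genes with signals in the middle range of the members' own, the median was -0.06, with 574 above and 900 below the median of all genes. Of these genes, 9 were at least 1.5-fold higher and 27 lower, and 0 were 2-fold higher and 2 lower. Their interquartile range ran from -0.19 to 0.09, and relative to these genes the members' median was 0.04. The shares of members past 0.10 on either side are near those of all genes, which include dim genes with the wider error. These counts therefore say nothing particular about complex I.

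Within those limits, subunits of the same complex lay on both sides. The highest was NDUFV2 with 0.36 (1.29-fold), followed by NDUFB5 with 0.35, NDUFB3 with 0.34, NDUFS4 with 0.30 and NDUFC1 with 0.27. The lowest was NDUFS8 with -0.38 (1.30-fold), followed by NDUFA3 with -0.33, NDUFA9 with -0.25, NDUFB11 with -0.25 and NDUFA11 with -0.23.

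**Figure D2:**
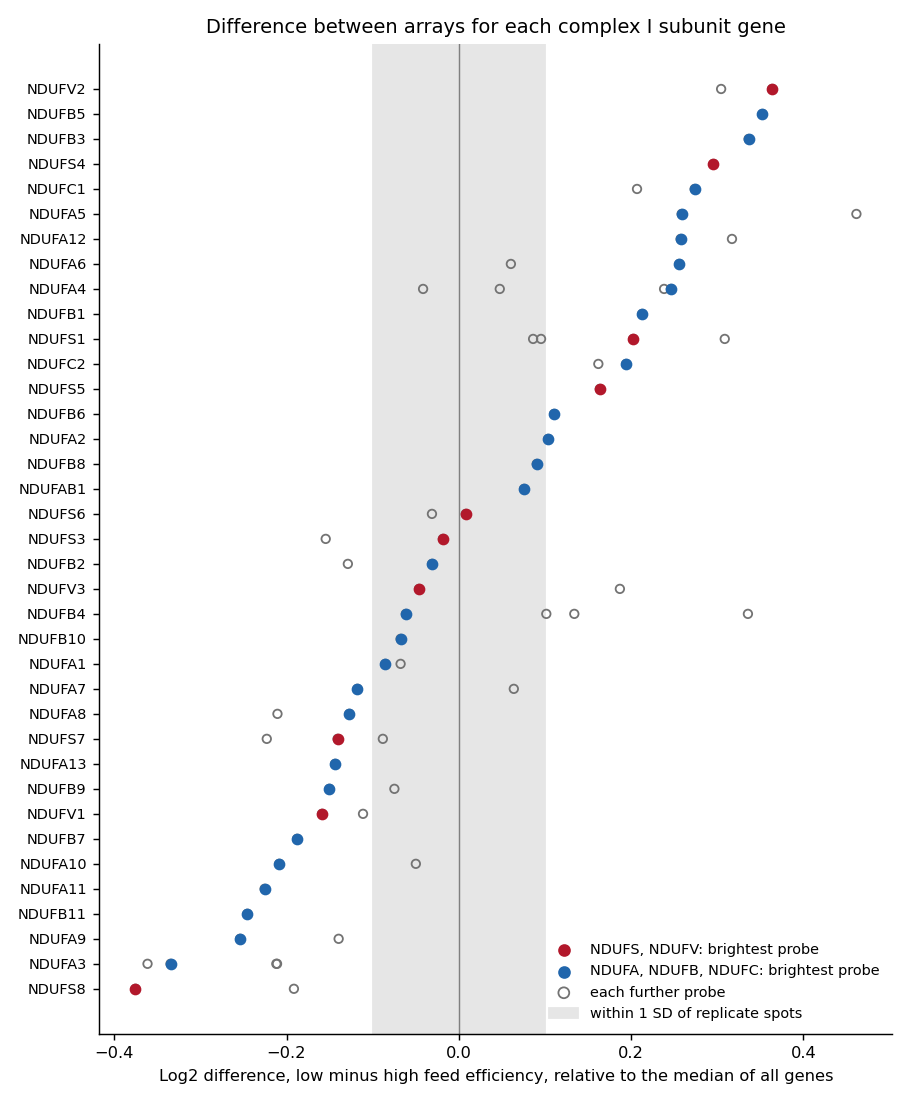
Relative log2 difference (low minus high feed efficiency, less the median of all genes) of each gene, with filled points for the brightest probe, open circles for every further probe above background on both arrays, and a grey band of 1 SD over replicate spots. Values run from -0.38 for NDUFS8 to 0.36 for NDUFV2, and red (NDUFS, NDUFV) and blue (NDUFA, NDUFB, NDUFC) points are found at both ends.

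The NADH-oxidising tip of the matrix arm held the highest member. NDUFV2, which carries an iron-sulphur cluster beside the flavin, read 1415 and 934, and its other probe read 618 and 425. Both probes were on the higher side, with relative differences of 0.36 and 0.30. NDUFV1, which binds NADH and the flavin itself, read 1579 and 1497 and had -0.16, and its other probe had -0.11. The partners that form the electron input site therefore lay on opposite sides of the median, each with both of its probes. NDUFS1, the largest subunit of this tip, with several iron-sulphur clusters, read 210 and 155, a relative difference of 0.20, and its 4 measured probes ran from 0.09 to 0.31.

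Accessory subunits at the tip carry core-style names. NDUFS4, whose loss in people and mice causes a Leigh-type encephalopathy, had a single probe that read 461 and 319, with a relative difference of 0.30. NDUFS6, a zinc-binding subunit, read 566 and 478 and had 0.01, with its other probe at -0.03. NDUFV3, a small subunit that exists as splice isoforms, read 528 and 463 at -0.05, while a dimmer probe, matched by symbol only, read 63 and 47 at 0.19. NDUFS6 was the member closest to the median of all genes. NDUFA12, attached to the same arm, read 708 and 503, and its 2 probes had 0.26 and 0.32. NDUFA2, which has a thioredoxin-like fold, read 1798 and 1421 with a relative difference of 0.10.

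Subunits around the ubiquinone site come next. NDUFS8, which carries the clusters that lead to the last one, read 2925 and 3222. While the middle gene read 1.18-fold higher in low feed efficiency, NDUFS8 was 1 of 4 members with higher raw intensity on the dimmer array. Its relative difference was -0.38, and -0.19 at its other probe (661 and 641). NDUFS7, which holds the last cluster before ubiquinone, read 1035 and 969 and had -0.14, with its 3 probes between -0.22 and -0.09. NDUFS3, a scaffold of this module, read 1273 and 1095 and had -0.02 (other probe -0.15). NDUFA9, a nucleotide-binding subunit next to the ubiquinone site, read 710 and 719, with -0.25 and, at its other probe, -0.14. NDUFA5, an accessory subunit that joins early in assembly, lay on the other side and read 517 and 367 and had 0.26, and 0.46 at its other probe (381 and 235). That second value was the highest of any probe in the set.

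The remaining subunits of the matrix arm include those tied to the acyl carrier protein. NDUFAB1, which is also the mitochondrial acyl carrier protein of fatty acid and lipoic acid synthesis, read 2498 and 2013, with a relative difference of 0.08. NDUFA6 and NDUFB9, both of the LYR protein family, each bind a copy of it, the first in the matrix arm and the second in the membrane arm. NDUFA6 read 1849 and 1315 and had 0.26 (other probe 0.06), and NDUFB9 read 973 and 917 and had -0.15 (other probe -0.07). By their brightest probes the LYR partners lay on opposite sides of the median of all genes. NDUFA7 had -0.12 at 2456 and 2263, and 0.06 at a dim probe that read 16 and 13.

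The membrane arm begins next to the matrix arm with subunits of the NDUFA and NDUFC series and NDUFS5. NDUFA3, a single-pass membrane subunit, read 10162 and 10883, and its 4 probes ran from -0.36 to -0.21, the lowest of them at a dim probe that read 11 and 12. NDUFA11, a member of the protein family of the inner membrane translocases that also touches complex III in supercomplexes, read 2383 and 2366 with -0.23. NDUFA10, which resembles a nucleoside kinase, read 319 and 313 at the probe that represents it (-0.21) and 331 and 291 at the other (-0.05). NDUFA13, known also as GRIM19, a regulator of cell death and STAT3, had -0.14 (727 and 682), and its left-out brighter probe would give -0.22. NDUFA8, on the intermembrane space side, had -0.13 and -0.21 at its 2 probes. NDUFA1, an X-linked subunit needed for assembly, read 4110 and 3703 with -0.09. NDUFS5, also on the intermembrane space side, had 0.16 (4471 and 3390). The membrane subunits NDUFC1 and NDUFC2 were above the median of all genes as well. NDUFC1 read 726 and 510 and had 0.27 and 0.21 at its 2 probes, and NDUFC2 read 1909 and 1417 and had 0.19 and 0.16.

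Subunits of the NDUFB series, which line the distal part of the membrane arm, were spread over the whole range. NDUFB5 read 896 and 596 and NDUFB3 read 391 and 263, each on a single probe, with relative differences of 0.35 and 0.34. NDUFB1 followed with 0.21 (1523 and 1116), NDUFB6 with 0.11 (731 and 575) and NDUFB8 with 0.09 (3257 and 2598). On the other side lay NDUFB11, an X-linked single-pass subunit, at -0.25 (2094 and 2108), and NDUFB7, on the intermembrane space side, at -0.19 (1678 and 1623). NDUFB10, on that side as well, had -0.07 (2390 and 2127), and NDUFB2 had -0.03 and -0.13 at its 2 probes. The 11 NDUFB genes had a median of -0.03, with 5 above and 6 below the median of all genes. NDUFB4 was read by 4 probes that disagreed: its brightest, 1002 and 888, had -0.06, while the others had 0.10, 0.13 and 0.34. With the pixel mean that brightest probe gave -0.60 in place of -0.06, its spot reading 699 and 903 by the mean.

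NDUFA4 carries a complex I name but is now placed in complex IV, cytochrome c oxidase. Its brightest probe read 5061 and 3624, a relative difference of 0.25. A further probe had 0.24 at the low intensities of 50 and 36, while the other two, at 4437 against 3646 and 3001 against 2623, had 0.05 and -0.04. Its mean over probes was 0.12.

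Core and accessory subunits were then set side by side. By name, the 10 NDUFS and NDUFV genes had a median relative difference of -0.005 (range -0.38 to 0.36), and the 27 NDUFA, NDUFAB, NDUFB and NDUFC genes had -0.03 (range -0.33 to 0.35). Of the first group 5 lay above and 5 below the median of all genes, and of the second 13 above and 14 below. The medians differed by 0.03, and the ranges overlapped nearly in full. Names and structure do not coincide: NDUFS4, NDUFS5, NDUFS6 and NDUFV3 are accessory by structure. The 6 members that hold the flavin, the clusters or the ubiquinone site (NDUFS1, NDUFS3, NDUFS7, NDUFS8, NDUFV1 and NDUFV2) had a median of -0.08, against 0.01 for the other 31, which turns the sign of the difference to -0.09. The same turn came with the next-brightest probe of the 23 genes that had one (-0.11) and with spots flagged good only (-0.09). Of 15 alternatives 10 gave a positive and 5 a negative difference. The positive ones include 2 scalings that leave every value as it is and 2 filters that shift the members by a constant. These could not change the difference, and keeping flagged bright spots left it at 0.03 too, so the tally carries little weight. No direction between core and accessory subunits can be given.

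The arms of the complex also overlapped. The 15 genes of the matrix arm had a median of 0.01 (8 above, 7 below) and the 20 of the membrane arm -0.06 (8 above, 12 below). The medians differed by 0.07, and the difference was positive in all 12 alternative settings, from 0.04 to 0.14. Of these, 2 leave every relative difference as it is and 2 shift the members by a constant, so they could not change it. Keeping flagged bright spots left it at 0.07 as well. It was not computed with the next-brightest probes, and no test of it is possible. Within the matrix arm, the 6 accessory genes with NDUFA names had a median of 0.18, with 4 above and 2 below. The pair of NDUFC genes had 0.23, both above, while the 14 NDUFA and NDUFAB1 genes had -0.10, 6 above and 8 below.

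**Figure D3:**
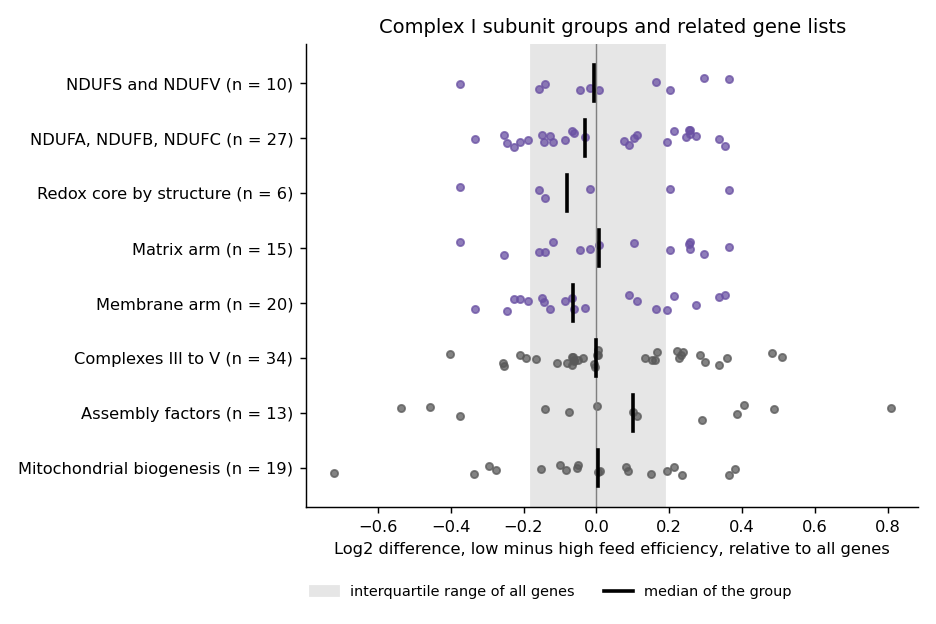
Relative log2 difference (low minus high feed efficiency, less the median of all genes) of each measured gene in 5 groupings of the complex I genes (purple) and in 3 related gene lists (grey), with a black bar for the group's median and a grey band for the interquartile range of all genes. Medians of the complex I groupings lie between -0.08 and 0.01, and each of these groupings has genes on both sides of 0.

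Separate probes of a gene gave a second reading of the same RNA on the same 2 arrays. Of the 37 genes, 23 had more than 1 probe above background on both arrays and 14 had a single one. Over the 23, the brightest and next-brightest probes had a Pearson's r of 0.81 and a Spearman's rho of 0.78 for the relative difference, and 19 pairs lay on the same side of 0. These points share both arrays and their scaling, and probes of a gene may overlap in sequence. Over 2815 other genes with both probes in the same range of signal, r was 0.46 and 2014 pairs lay on the same side. Over all 4995 genes with 2 probes, 3457 pairs did. The median gap between the probes was 0.13 over the 2815, against 0.11 for the complex I genes. Counting every measured probe, 7 genes had all probes above the median of all genes, 11 had all below, and 5 (NDUFA4, NDUFA7, NDUFB4, NDUFS6 and NDUFV3) had probes on both sides. No such count over other genes is given beside these. The widest gap between the brightest and the next probe was 0.23, at NDUFV3. The 7 with all probes above were NDUFA5, NDUFA6, NDUFA12, NDUFC1, NDUFC2, NDUFS1 and NDUFV2.

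**Figure D4:**
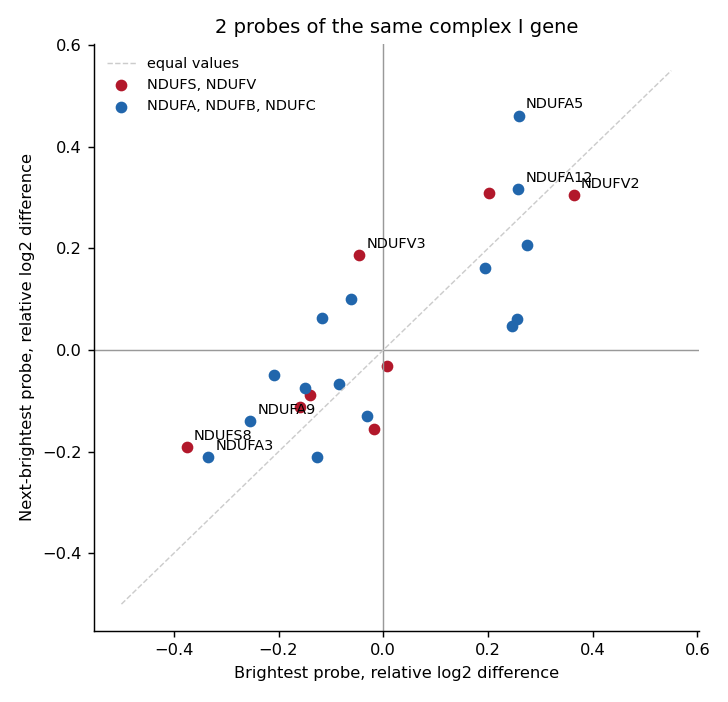
Relative log2 difference at the next-brightest probe (vertical axis) against that at the brightest probe (horizontal axis) for the 23 genes with at least 2 measured probes, each point a gene, with a dashed line of equal values. Points follow the line from NDUFS8 and NDUFA3 at the lower left to NDUFV2 and NDUFA5 at the upper right, and 19 of 23 lie in the quadrants of equal sign.

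The arrays were also processed differently. Over 12 alternative settings (11 for NDUFB10, which had no spots flagged good on both arrays), 28 of 37 genes stayed on the same side of the median of all genes, 17 of them above and 11 below, and 9 took either side. The 28 are 75.7% of the members, where 70.3% of all genes and 71.3% of other genes in the members' range of signal stayed on the same side. Of the 12 settings, 2 leave every relative difference as it is by construction and 2 shift the members by a constant, so 8 could reorder them. The 9 were NDUFA1, NDUFB2, NDUFB4, NDUFB9, NDUFB10, NDUFS3, NDUFS6, NDUFS7 and NDUFV3. The highest gene, NDUFV2, ranged from 0.33 to 0.45, and the lowest, NDUFS8, from -0.38 to -0.24. Changing the scaling of an array shifts all genes alike and leaves relative differences as they are. Scaling on 7 spike-in controls moved the median of all genes from -0.04 to 0.34 on the log2 scale, so the sign of a difference without the median taken off depends on the scaling.

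**Figure D5:**
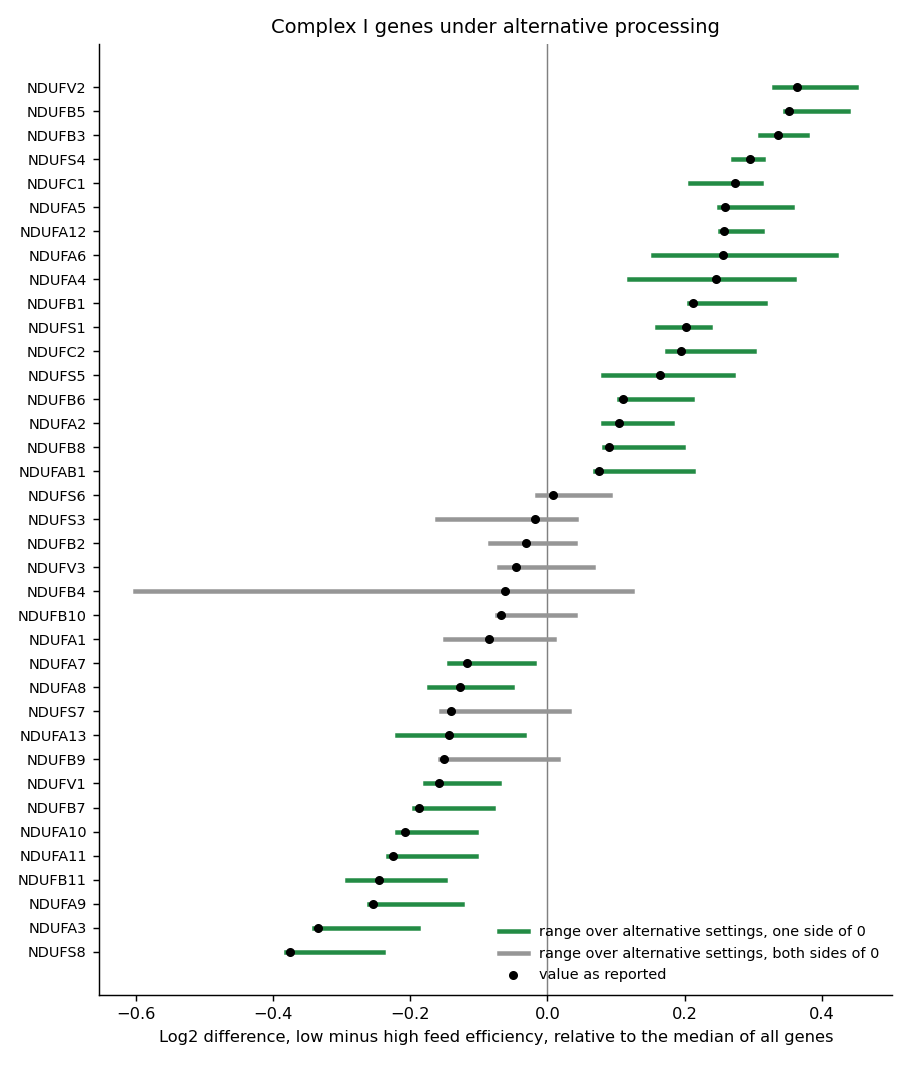
Relative log2 difference of each gene as reported (black point) and its range over 12 alternative settings (bar), green where every setting lies on the same side of 0 and grey where both sides occur. The 28 green bars run from NDUFS8, between -0.38 and -0.24, to NDUFV2, between 0.33 and 0.45, and the widest bar is that of NDUFB4, from -0.60 to 0.12.

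Genes of complexes III, IV and V, which take the electrons on to oxygen and use the proton gradient to make ATP, were looked at next. All 34 on the list were measured, with a median of -0.001 and 17 genes on each side. That median was 0.09 with normexp background correction and 0.08 with quantile or loess normalization, where the median of complex I was 0.04, 0.03 and 0.04. Farthest from 0 were COX6C, a complex IV subunit, with 0.51 (2665 and 1589) and ATP5PB, of the stalk of the ATP synthase, with 0.48 (2071 and 1259). No gene of that list was 1.5-fold apart.

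The mitochondrial DNA encodes the remaining membrane core of complex I, and the array had probes for 6 of these genes under their own symbols, looked at after their values were seen. Of 9 probes 8 lay below the median of all genes, with a median of -0.24. ND1 read 5717 and 5718 at its brightest probe, and its 3 probes had -0.24, -0.28 and -0.40. ND2 had -0.48 (384 and 455), and the 2 ND4 probes had -0.24 and -0.34. ND5, ND6 and ND4L were closer to the middle, with -0.10, -0.02 and 0.04. All mitochondrial subunits except ND4L were thus at or below the middle gene, whereas the nuclear genes were split 18 to 19. Neighbouring genes of mitochondrial DNA are read from shared transcripts, so these probes are not separate observations, and the difference from the nuclear genes was not tested.

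Complex I needs dedicated assembly factors, and 13 of 17 on a list of them were above background on both arrays, with a median of 0.10, 8 above and 5 below the median of all genes. TMEM70, which helps to build the ATP synthase and complex I, was farthest from 0, at 332 and 161 (0.81, a single probe). TMEM186, a factor of the membrane arm, followed with -0.54 (52 and 64, a single probe). Next came TMEM126B with 0.49 (other probe 0.70) and FOXRED1 with -0.46 (other probe -0.32). After them came TIMMDC1 with 0.40 (other probe -0.24) and NDUFAF5 with 0.39 (a single probe). NDUFAF3, which acts on the ubiquinone module, ranked 7 by distance with -0.37 (2806 and 3088, a single probe). NDUFAF2, the assembly paralog of NDUFA12, had a probe at 6 and 12, over the background limit on the array of high feed efficiency alone, and another at 7 and 4, over it on neither array, so no direction is given. The median of this list took the other sign, -0.04, when dim probes were kept, and many of its genes read near background.

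Regulators of nuclear respiratory genes and markers of mitochondrial content had a median of 0.01 over 19 of 23 listed genes, 10 above and 9 below. The coactivator gene PPRC1 had -0.72 at the low intensities of 15 and 21, and GABPA, which encodes an ETS factor of respiratory promoters, had 0.38 (23 and 15). Citrate synthase (CS), often used as a measure of mitochondrial content, read 1705 and 1610 and had -0.15, with its 3 probes from -0.47 to -0.14. The outer membrane channel gene VDAC1 had -0.08 (687 and 618), with 3 probes that ran from -0.17 to 0.38. Other genes of the list lay on both sides. TOMM20 had 0.23, with its 3 probes from 0.14 to 0.23, and TOMM22 had 0.15 (other probe -0.22). PHB2 had -0.34, with its 3 probes from -0.34 to -0.23, and HSPD1 had -0.28, with 5 probes from -0.28 to 0.29. TFAM, which packages mitochondrial DNA, passed the background limit on the array of low feed efficiency alone, at 21 and 7 (there at least 1.58-fold higher, before the median of all genes is taken off).

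Markers of blood cell types are given beside these values, each gene counted by its brightest probe. Some had another probe on the other side. In B cells these were CD79A (0.15, other probe -0.29) and MS4A1 (0.08, other probe -0.24). In other lists they were CD3E (-0.12, other probe 0.43), MMP9 (-0.19, other probe 0.13) and LYZ (0.35, other probe -0.01). Neutrophil markers (9 of 9 measured) had a median of 0.14, with 7 above and 2 below (CXCR2 -0.13 and MMP9 -0.19). Their summed signal was 909.9 on the first array and 809.5 on the second, in units of each array's 75th percentile. S100A12, at 48851 and 34561, was by far the brightest of them. Natural killer markers (5 of 6) had a median of -0.34, all below, at 121.6 and 154.0, with KLRD1 not above background on either array. T cell markers (7 of 7, 2 above and 5 below) had a median of -0.11, with a summed signal of 161.2 and 182.6. B cell markers (6 of 6, 3 above and 3 below) had -0.06, at 67.3 and 71.4. Monocyte markers (6 of 6, 2 above and 4 below) had -0.17, at 298.6 and 341.1. They ran from -0.82 for CSF1R to 0.36 for VCAN. Platelet markers (4 of 6, 1 above and 3 below) had -0.21, at 121.1 and 125.9. Erythroid markers (5 of 7, 2 above and 3 below, with SLC4A1 not above background) had -0.01, at 341.7 and 308.6. Erythroid genes were spread widely: ALAS2, the first enzyme of heme synthesis in red cell precursors, had -1.38 (112 and 248) and the globin chaperone gene AHSP -0.33, while HBB had 0.30 and HBA, which makes up most of the summed signal, 0.17. Fewer cells of a type and less RNA per cell cannot be told apart in whole blood, and the part of cell composition in the values of complex I genes was not tested.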

How the data were processed

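The deposited scanner files hold an intensity per spot at 532 nm, written by GenePix Pro 6.1.0.4, per the file headers, from 1 slide and 1 scan for both arrays. Agilent Feature Extraction is named in the submitters' processing notes. How the authors normalized their value table is not given in the sources used. Its deposited log2 values followed the scanner values after a shift of 1 row (Spearman's rho 1, against 0.0766 and 0.0716 before), and the shifted table served as an alternative. The share of saturated pixels is a deposited percent, and the spot flag a deposited score of 100 (good), 0 or -50 (not found).

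Control spots and bright spots flagged as not found (408 and 283) were left out, which kept 43096 probes. Above background meant over the negative controls' median by 3 robust SDs (10.9 on both arrays). Intensities were divided by the 75th percentile and taken to log2, and a gene took the brightest of its probes that passed on both arrays. Probes were named through RefSeq accessions and symbols of ARS-UCD2.0. The array files name no genome build, so no coordinates are given, and promoter or probe sequences were not analysed here. The fold was counted against the median of all genes, at 2-fold and 1.5-fold. Named genes were every member, and for other lists those farthest from the median plus some chosen after their values were seen. Members and lists were chosen with earlier results of these data known. The calculation of the differences was checked on simulated intensities. Alternatives were normexp with an offset of 50 (limma 3.58.1), the pixel mean, the authors' table, loess or quantile normalization, other scalings, other filters on flagged or dim spots, the mean over probes and other groupings. Python 3.11.15, scipy 1.17.1 and R 4.3.3 were used.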

Additional observations from a re-analysis of the deposited data

How the results depend on the processing

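The median of the complex I genes stayed between -0.05 and 0.07 over 14 alternatives, positive in 7 and negative in 7, and the number of members above the median of all genes between 18 and 23 over 12. None was 2-fold apart under these 12, and none 1.5-fold apart except NDUFB4 with the pixel mean (-0.60). The difference of core minus accessory subunits (0.03) became -0.0882 with spots flagged good and -0.0876 with the core taken by structure. With the next-brightest probe of the 23 genes that had one, it was -0.11. It was also negative with the mean over probes (-0.0463) and the authors' table (-0.0050). It was positive under the other 10, some of which could not change it by construction. The median of the assembly factors was -0.0438 without a filter on dim probes in place of 0.10. The lists of complexes III to V (-0.01 to 0.09) and of mitochondrial biogenesis (-0.05 to 0.03) took either sign. The comparison with genes of like signal, the next-brightest probe and keeping flagged bright spots were added after seeing the data. No paired analysis was possible because each group has 1 array. The number of arrays limits the precision, and signal over background limits the dim genes of the lists more than the 37 members.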
